A study of Rattus norvegicus with 4 samples.

Results

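The transcripts described here are 9 genes of tendon cells and of the collagen-binding matrix that tendon and muscle connective tissue share. They were Tnmd, Scx, Chad, Comp, Cilp2, Fmod, Lum, Dcn and Bgn. They were chosen by name, with earlier results of these data known, so shares among them beside those of all genes are description only. A probe was assigned to a gene when its RefSeq accession mapped to that symbol. This gave 11 probes for the 9 genes, among 26624 genes or unnamed accessions on the array. Where a gene had more than 1 probe (Scx and Bgn), the brighter one on average was used.

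RNA came from skeletal muscle of male rats aged 15 weeks and was measured on 4 one-colour arrays. The wild-type group was Wistar, sedentary per the series' design text, and gave 2 arrays. SPORTS is a hyperactive mutant rat on the Wistar background, and gave 1 array of an exercised animal and 1 array of a sedentary animal. The muscle sampled and the kind of exercise are not given in the sources used here. Nor is it stated that the wild-type arrays came from separate animals, so the spread behind each p-value may be technical.

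Tendon is built of collagen fibrils laid down by tenocytes, and the same kind of tissue continues into the sheaths around muscle fibres. Scleraxis (Scx) is a basic helix-loop-helix transcription factor of tendon progenitors and tenocytes, and tenomodulin (Tnmd) is a membrane protein of mature tenocytes. Decorin (Dcn), biglycan (Bgn), lumican (Lum) and fibromodulin (Fmod) are small leucine-rich proteoglycans that bind collagen and shape fibril thickness. Chondroadherin (Chad) is a leucine-rich protein of cartilage that binds collagen and cells. Cartilage oligomeric matrix protein (Comp) is a thrombospondin-family protein of tendon and cartilage, and Cilp2 encodes a relative of cartilage intermediate layer protein.

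Chad, Tnmd, Fmod and Cilp2 were the 4 genes of the group that differed from wild type on both SPORTS arrays, and their promoter windows are shown for that reason. RefSeq's table (build GRCr8) held a window of 250 bases before to 50 bases after the start for 6 of the 9 genes. These were Comp, Chad, Tnmd, Fmod, Cilp2 and Lum. The Tnmd window is chrX:101350182-101350481 on the plus strand, Chad chr10:80008795-80009094 on the plus strand, Fmod chr13:48045317-48045616 on the plus strand and Cilp2 chr16:19573857-19574156 on the plus strand. Capitals mark each match to CANNTG, the E-box that basic helix-loop-helix factors such as scleraxis bind, searched on both strands.
Tnmd: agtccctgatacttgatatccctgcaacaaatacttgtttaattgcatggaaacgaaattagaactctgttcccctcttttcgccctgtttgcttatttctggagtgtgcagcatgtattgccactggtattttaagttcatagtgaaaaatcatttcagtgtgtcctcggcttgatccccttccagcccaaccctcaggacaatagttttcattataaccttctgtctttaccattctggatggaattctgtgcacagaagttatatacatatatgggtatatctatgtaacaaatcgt
Chad: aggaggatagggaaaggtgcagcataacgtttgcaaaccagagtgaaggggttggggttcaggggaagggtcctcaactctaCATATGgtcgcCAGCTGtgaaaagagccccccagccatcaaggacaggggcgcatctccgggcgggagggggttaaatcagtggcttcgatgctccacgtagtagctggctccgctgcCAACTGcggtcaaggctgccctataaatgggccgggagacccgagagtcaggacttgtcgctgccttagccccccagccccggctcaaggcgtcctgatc
Fmod: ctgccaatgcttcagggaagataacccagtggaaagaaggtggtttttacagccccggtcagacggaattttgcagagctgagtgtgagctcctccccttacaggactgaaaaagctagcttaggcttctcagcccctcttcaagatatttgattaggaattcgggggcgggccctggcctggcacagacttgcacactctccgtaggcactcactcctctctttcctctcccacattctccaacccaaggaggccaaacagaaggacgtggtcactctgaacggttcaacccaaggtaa
Cilp2: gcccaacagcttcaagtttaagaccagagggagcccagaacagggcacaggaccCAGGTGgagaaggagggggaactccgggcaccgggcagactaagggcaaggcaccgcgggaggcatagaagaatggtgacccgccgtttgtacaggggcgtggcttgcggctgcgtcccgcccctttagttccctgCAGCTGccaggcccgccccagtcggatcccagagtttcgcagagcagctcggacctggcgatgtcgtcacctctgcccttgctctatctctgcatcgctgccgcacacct
The windows of Tnmd and Fmod held no match to CANNTG, Chad held 3, Cilp2 and Comp 2 each and Lum 1. Of 33469 promoter windows of the same length, 72.1% held at least 1 match and 16.6% held 3 or more. The form CAGCTG, which is contained in CANNTG, occurred once each in Chad, Cilp2 and Comp and in 15.1% of all windows. The Chad window also held TATAAA at -29 from the start, a match found in 14.2% of all windows. None of the 6 windows held CATCTG, another form of the E-box (16.6% of all windows), or TGANTCA, an AP-1 form (7.33%). The 4 genes shown did not share these letters within the windows.

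The 4 arrays shared 1 slide, which leaves no batch to compare. The scanner software flagged 46.0% to 50.3% of probes per array as well above background, with the lowest share on the exercised array. The 75th percentile of its signal was 864 against 1082 to 1111 on the other arrays. A level below is the log2 of the processed signal minus the 75th percentile of that array, so 0 is the upper quartile of the probes. The muscle markers Acta1, Ckm, Des, Mb, Myh7 and Tnnt3 were well above background on all 4 arrays. The wild-type arrays lay at least 2-fold apart for 151 of 13326 genes tested (1.13%), and for none of the 9 genes: their wild-type values differed by 0.29 at most, for Lum. The scanner software's own error for the 9 probes was at most 10.8% of the signal on the wild-type arrays and 15% on the sedentary array. On the exercised array it was 10% for Fmod, Scx, Dcn and Bgn, 17.3% for Lum and 22.6% for Comp. There it reached 59.9% for Chad, 99.7% for Cilp2 and 99.9% for Tnmd. Dcn is printed as 10 spots, and its SD over the 7 to 10 spots kept was 0.0243 to 0.0341 on the log2 scale, below the difference of 0.15 between the wild-type arrays. No spot of these probes was saturated.

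**Figure D1:**
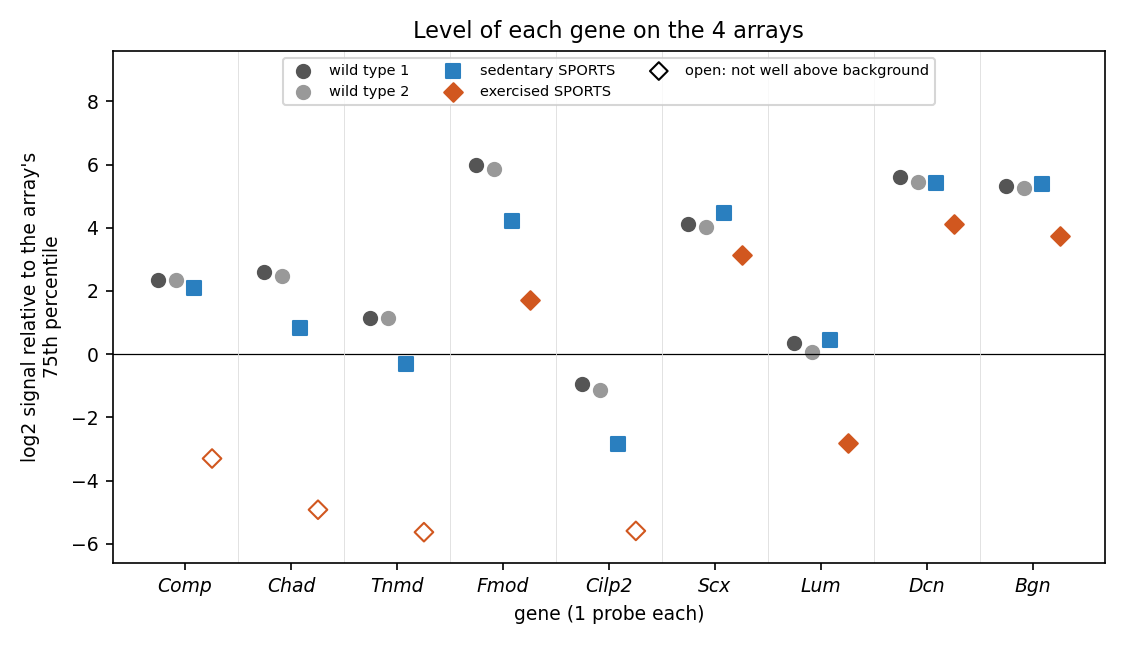
Levels of the 9 genes (log2 signal relative to the 75th percentile of each array) on the 2 wild-type arrays, the sedentary SPORTS array and the exercised SPORTS array, with 1 point per array and open symbols where the probe was not well above background. The exercised array is the lowest for all 9 genes, and for Comp, Chad, Tnmd and Cilp2 its point is open.

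The tenocyte membrane gene Tnmd had a level of 1.16 on both wild-type arrays, -0.30 on the sedentary SPORTS array and -5.63 on the exercised SPORTS array. It was well above background on the first 3 of these and not on the exercised array, where the signal was 17.5 against 2452 and 2413 in wild type. The order was wild type, then sedentary, then exercised, and both steps were larger than the gap between the wild-type arrays.

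Chad, the cartilage leucine-rich protein, followed the same order. Its levels were 2.61 and 2.47 in wild type, 0.82 on the sedentary and -4.92 on the exercised SPORTS array. The exercised value again had only a bound.

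Fmod, encoding the fibril-binding fibromodulin, stayed well above background on every array. Its levels were 5.99 and 5.87 in wild type, 4.22 on the sedentary and 1.72 on the exercised SPORTS array. The gene thus gives a measured value for each step of this order.

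The last gene with this order was Cilp2. It read -0.94 and -1.14 in wild type, -2.85 on the sedentary and -5.59 on the exercised SPORTS array. The exercised value was not well above background, and the lowest signal that was lay at -3.43 on that array.

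Comp, the thrombospondin-family matrix protein gene, had another pattern. It measured 2.35 and 2.36 in wild type, 2.10 on the sedentary and -3.30 on the exercised SPORTS array. The sedentary array lay 0.26 below the wild-type mean, and the exercised array stood far below the other 3.

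Scx, the tendon transcription factor gene, read 4.13 and 4.02 in wild type, 4.47 on the sedentary and 3.13 on the exercised SPORTS array. Its second probe, lower in signal, gave 2.06 and 1.77, then 2.31 and 1.05. The probes gave the same order, with the sedentary SPORTS array highest and the exercised array lowest.

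Among the collagen-binding proteoglycans, Lum, a keratan sulphate proteoglycan gene, read 0.36 and 0.07 in wild type, 0.45 on the sedentary and -2.80 on the exercised SPORTS array. Dcn, encoding decorin, read 5.61 and 5.46, then 5.41 and 4.11. Bgn, encoding biglycan, read 5.33 and 5.26, then 5.40 and 3.73. For all of them the sedentary array lay within 0.4 of both wild-type arrays and the exercised array lay below the other 3. The second Bgn probe, at -0.25 and -0.29 in wild type, gave -0.19 and -1.68.

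The comparison of sedentary SPORTS with wild type holds the stated exercise state equal. Tnmd, Chad, Fmod and Cilp2 fell, and the other 5 genes did not pass the test. In a linear model across all genes tested (limma, 3 groups, threshold of 0.05 after Benjamini-Hochberg adjustment), Cilp2 fell by 1.80 ± 0.12 (SE) on the log2 scale, Chad by 1.72 ± 0.09, Fmod by 1.71 ± 0.09 and Tnmd by 1.46 ± 0.06. These are falls of 3.49-fold, 3.30-fold, 3.27-fold and 2.75-fold, with adjusted p of 0.0383, 0.0361, 0.0343 and 0.0322. Of all genes tested, 3.45% were called lower and 2.82% higher. All 4 lay at least 2-fold below both wild-type arrays, as did 2.17% of all genes tested.

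The remaining values ran both ways. Comp differed by -0.26 ± 0.06 (adjusted p = 0.104), Scx by 0.40 ± 0.09 (0.0916), Lum by 0.24 ± 0.16 (0.380), Dcn by -0.13 ± 0.10 (0.424) and Bgn by 0.10 ± 0.07 (0.383). Over all 9 genes the median difference was -0.26, beside -0.01 over all genes tested. Without the filter on dim genes the 4 calls were lost (adjusted p from 0.0755 to 0.0856), and no gene on the array passed. The spread in this model comes from the wild-type pair alone, and the lone SPORTS arrays are assumed to vary like it.

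**Figure D2:**
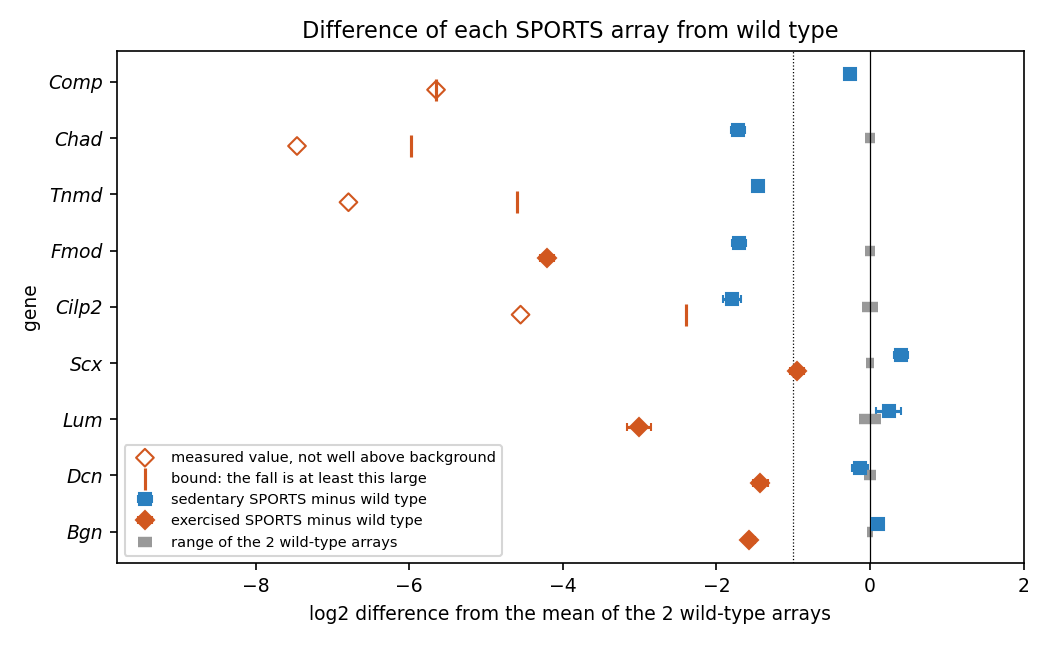
Log2 difference of the sedentary (squares) and exercised (diamonds) SPORTS array from the mean of the 2 wild-type arrays for each gene, with the SE of the fit as error bars, grey bars for the range of the wild-type arrays and a dotted line at a 2-fold fall. Tnmd, Chad, Fmod and Cilp2 lie below the dotted line on both SPORTS arrays. Open diamonds give measured values that were not well above background, and the vertical tick for the same gene gives the bound.

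On the exercised SPORTS array all 9 genes fell against wild type, but calls were frequent on this array: 26% of all genes tested were called lower and 27.3% higher. Chad was at least 62.9-fold lower, Comp at least 50.3-fold, Tnmd at least 24.1-fold and Cilp2 at least 5.25-fold (adjusted p = 0.00424 for each, from the fit to the measured values). For a bound, the wild-type mean was set against the lowest signal well above background on the exercised array, or against the probe's value there if that was higher. These bounds depend on the background correction: with normexp correction the fitted differences on the log2 scale were -5.55 for Chad, -4.73 for Comp and -4.41 for Tnmd, each smaller than its bound, and -2.59 for Cilp2. Fmod, measured on every array, fell by 4.21 ± 0.09 on the log2 scale, or 18.5-fold (adjusted p = 0.00424), and Lum fell by 3.01 ± 0.16, or 8.07-fold (0.00546). With normexp correction Lum differed by -2.39 and Fmod by -4.20.

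Bgn fell by 1.57 ± 0.07, or 2.96-fold, Dcn by 1.43 ± 0.10, or 2.70-fold, and Scx by 0.95 ± 0.09, or 1.93-fold, with adjusted p of 0.00481, 0.00711 and 0.00996. The second probes of Bgn and Scx differed by -1.41 and -0.86. Of the 9 genes, 8 lay at least 2-fold below both wild-type arrays, all but Scx, where 10.7% of all genes tested did. The median difference was -4.21 by measured values and -3.01 with dim values set to the floor of their array, beside 0.00 over all genes tested. The exercised array has no replicate, and bulk RNA cannot tell fewer cells of a type from less RNA per cell, here or in the other comparisons.

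**Figure D3:**
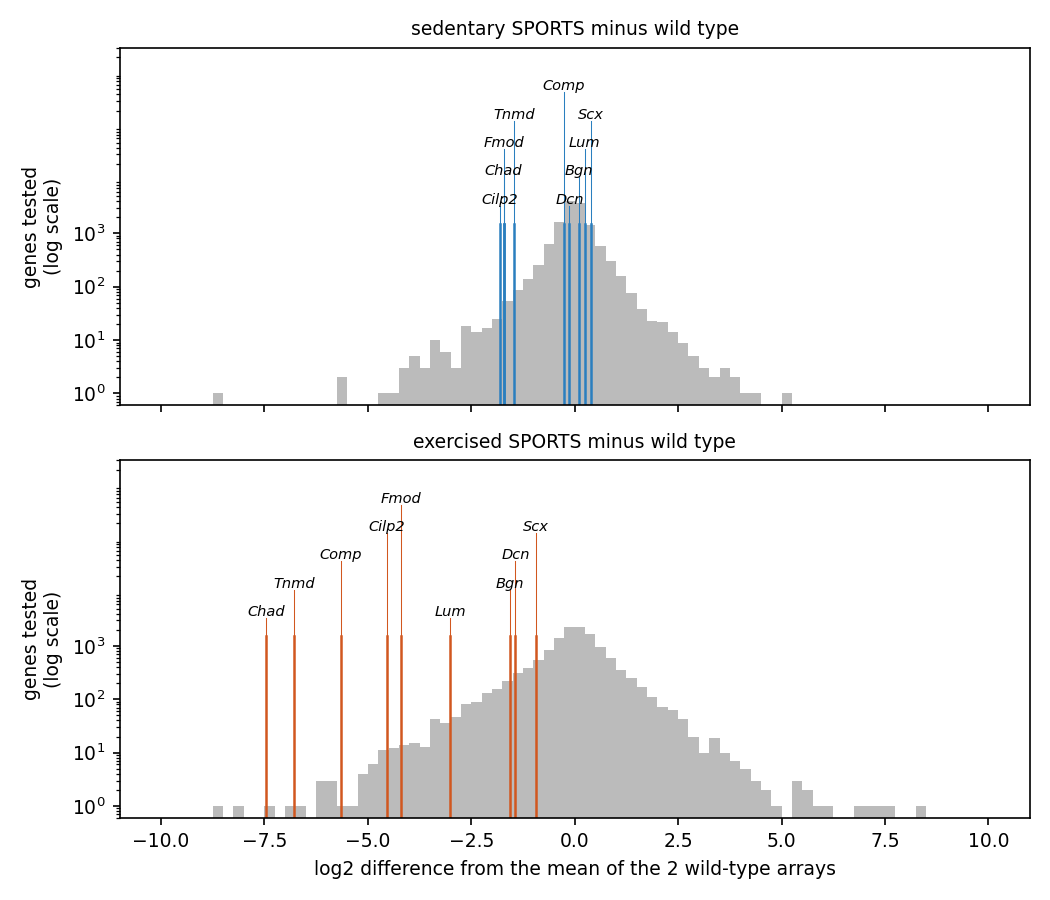
Number of genes tested (log scale) by their log2 difference from wild type on the sedentary SPORTS array (top) and the exercised SPORTS array (bottom), with vertical lines at the 9 genes. On the sedentary array Tnmd, Chad, Fmod and Cilp2 lie between -1.80 and -1.46 and the other genes near 0. On the exercised array the lines run from -7.46 for Chad to -0.95 for Scx. There the lines of Comp, Chad, Tnmd and Cilp2 are measured values that were not well above background.

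The exercised and sedentary SPORTS arrays are labelled as differing in exercise within the genotype, and each is 1 array, so no test was made. All 9 genes were lower by at least 2-fold in measured values on the exercised array, as were 12.8% of all genes tested. Comp was at least 42.1-fold lower, Chad at least 19.1-fold, Tnmd at least 8.78-fold and Cilp2 at least 1.50-fold. With normexp correction the differences were -4.48 for Comp, -3.78 for Chad and -2.99 for Tnmd on the log2 scale, each smaller than its bound, and -1.13 for Cilp2. Without it the difference was -3.25 for Lum, -2.50 for Fmod, -1.67 for Bgn, -1.34 for Scx and -1.30 for Dcn on the log2 scale. With normexp correction Lum differed by -2.62.

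Taking the SPORTS arrays together against wild type, as 2 arrays against 2, limma called none of the 9 genes and none of all genes tested, of which 982 had an unadjusted p under 0.05. Among the 9 genes, the differences ran from -4.59 ± 2.19 for Chad and -4.12 ± 2.03 for Tnmd to -0.28 ± 0.53 for Scx (adjusted p from 0.656 for Fmod to 0.863 for Scx). The unequal SPORTS arrays made the standard errors wide: in 3 groups the SE of Chad was 0.09. Both SPORTS arrays lay at least 2-fold below both wild-type arrays for Tnmd, Chad, Fmod and Cilp2, and for 1.28% of all genes tested. The order of wild type above sedentary above exercised was found in 6 of the 9, namely these 4, Comp and Dcn, and in 15.1% of all genes tested. For Comp and Dcn the step from wild type to sedentary did not pass the test.

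Other small leucine-rich proteoglycans were lower on the exercised array as well. Counts for this list, the collagens and the other tendon genes stand beside the 26% of all genes tested that were called lower there. Of 13 listed genes 8 had a probe and 6 were tested, and all 6 fell on the exercised array, by a median of 2.10. Kera, encoding the proteoglycan keratocan, best known from cornea, was at least 13.9-fold lower (adjusted p = 0.00426), Ogn, encoding osteoglycin, fell by 2.97 ± 0.06 (0.00424) and Aspn, encoding asporin, by 2.61 ± 0.08 (0.00429). In sedentary SPORTS Ogn alone passed, falling by 1.10 ± 0.06 (adjusted p = 0.0367), while Kera differed by -1.35 ± 0.14 (0.0510). Ogn, with levels of 2.46 and 2.44 in wild type, 1.35 on the sedentary and -0.52 on the exercised SPORTS array, had the same order as Fmod, and Aspn, at 0.04, -0.06, 0.15 and -2.62, the same pattern as Lum. Epyc and Nyx had probes that were not well above background on any array.

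The collagens that these proteins bind were lower on the exercised array too. Of 12 tendon collagen genes 6 had a probe and were tested, and all 6 fell on the exercised array. Their median difference was -1.58. Col1a1, a chain of the main collagen of tendon, read 6.02 and 6.03 in wild type, 4.62 on the sedentary and 3.05 on the exercised SPORTS array. It fell by 1.41 ± 0.06 on the sedentary (adjusted p = 0.0327) and by 2.98 ± 0.06 on the exercised array (0.00424). Its partner chain gene Col1a2 fell by 0.68 ± 0.06 (0.0457) and 1.99 ± 0.06 (0.00431). Col14a1, of a fibril-associated collagen, fell by 1.64 ± 0.08 on the exercised array (0.00526) and differed by 0.61 ± 0.08 on the sedentary one (0.0590).

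Among 13 other tendon genes, 10 had a probe and 7 were tested, and 6 fell and 1 rose on the exercised array. Their median difference was -2.55. Tnc and Clec11a were well above background on the wild-type arrays only. They entered the test through those arrays alone, so a call for them could hardly be other than lower. Cilp, the relative of Cilp2, fell by 2.92 ± 0.20 (adjusted p = 0.00700), and Ccn2, encoding a matricellular protein, by 2.89 ± 0.09 (0.00431). Tnc, encoding the matrix glycoprotein tenascin-C, was at least 1.38-fold lower (0.00986). The one that rose was Egr1, an immediate early transcription factor with a role in tendon in mice, by 1.94 ± 0.20 (0.0117). In sedentary SPORTS only Clec11a passed, at least 1.69-fold lower (0.0463). Of the 4 other thrombospondin genes 2 had a probe, and Thbs2 was the one tested: it fell by 1.83 ± 0.07 on the exercised array (0.00444) and differed by -0.31 ± 0.07 on the sedentary one (0.0896).

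Genes that make and trim this matrix changed in both directions. On the exercised array their counts stand beside 26% of all genes tested called lower and 27.3% called higher. Of 14 collagen processing genes tested, 10 fell and 2 rose on the exercised array (median -0.97). Among them P3h2, a collagen prolyl hydroxylase gene, was at least 4.46-fold lower there (adjusted p = 0.00424) and fell by 2.04 ± 0.08 on the sedentary array (0.0319). Loxl3 was at least 2.08-fold lower (0.00424) and Loxl2 fell by 1.71 ± 0.16 (0.0100), both genes of lysyl oxidases that cross-link collagen. Of 10 matrix protease and inhibitor genes tested, 6 fell on the exercised array and none rose. Among them the inhibitor gene Timp3 fell by 1.84 ± 0.06 (0.00441), the gelatinase gene Mmp2 by 1.68 ± 0.06 (0.00446) and the procollagen protease gene Bmp1 by 1.67 ± 0.16 (0.0104). On the sedentary array Timp3 fell by 0.83 ± 0.06 (0.0403) and Mmp14 rose by 0.76 ± 0.08 (0.0479).

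The enzymes that build the sugar chains of proteoglycans had a median of -0.11 on the exercised array, with 6 of 14 lower and 1 higher. This count and the one for TGF-beta and GDF genes stand beside 26% of all genes tested called lower there and 27.3% called higher. Chpf, a chondroitin polymerising factor, fell by 1.74 ± 0.06 (adjusted p = 0.00445), Dse, which encodes the dermatan sulphate epimerase and was well above background on 1 of the 2 wild-type arrays, was at least 1.07-fold lower (0.0156) and B3gat3, a linker enzyme gene, rose by 0.83 ± 0.08 (0.0119). In sedentary SPORTS Chsy1, a chondroitin synthase gene, rose by 0.92 ± 0.07 (0.0411). Of 11 TGF-beta and GDF pathway genes, which include inducers of Scx in mice, 6 fell and 1 rose on the exercised array (median -0.28). Tgfb1 was at least 1.77-fold lower (0.0484), Bmp4 fell by 0.80 ± 0.10 (0.0154), and the receptor gene Tgfbr2 by 0.78 ± 0.07 (0.00941). On the sedentary array the activin receptor gene Acvr2b fell by 1.17 ± 0.08 (0.0383).

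**Figure D4:**
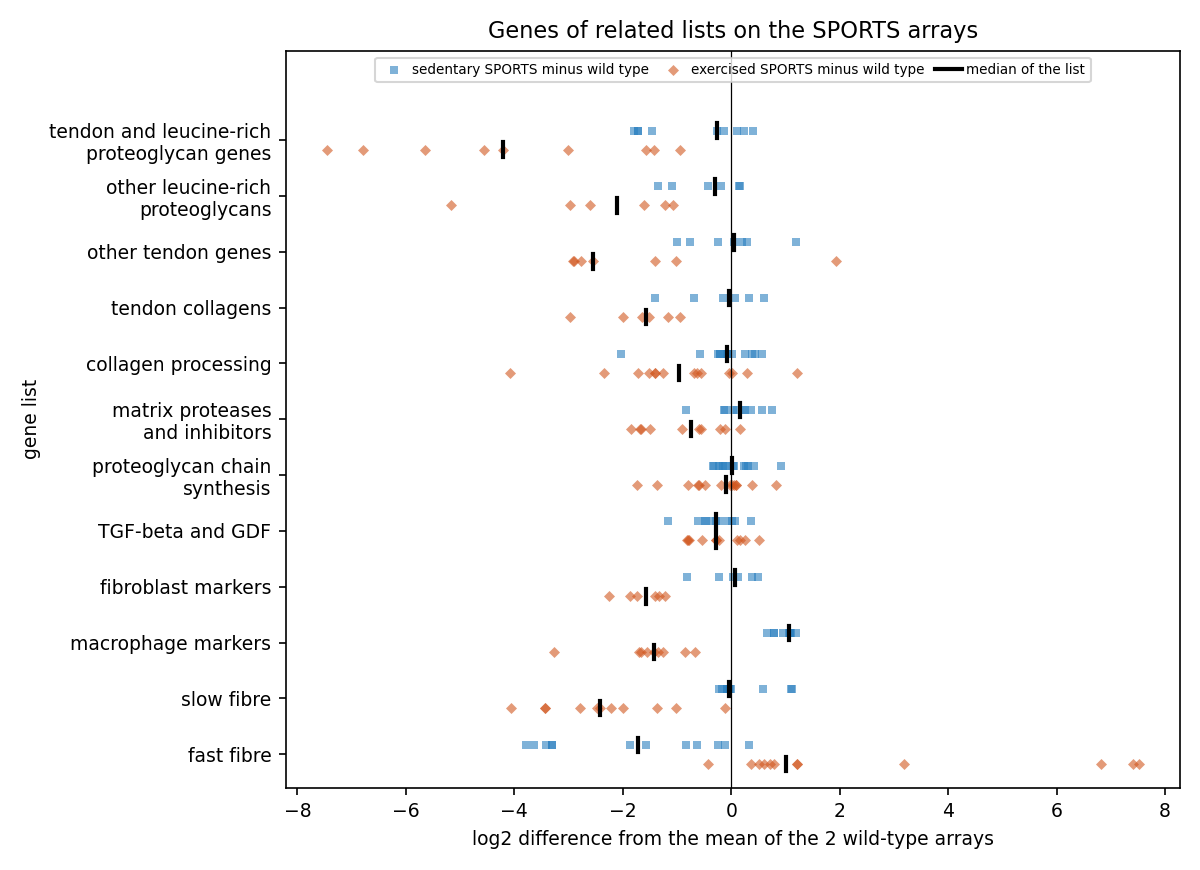
Log2 difference from wild type of each tested gene of 12 lists on the sedentary (squares) and exercised (diamonds) SPORTS array, with a black bar at the median of each list. All points are measured values, also where a probe was not well above background. The 9 tendon and leucine-rich proteoglycan genes have a median of -4.21 on the exercised array, or -3.01 with dim values at the floor. Proteoglycan chain synthesis genes have a median of -0.11 there. The medians of the fast fibre genes lie on opposite sides of 0 on the SPORTS arrays.

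Markers of other cells were read beside these values, and their counts on the exercised array stand against the 26% of all genes tested that were called lower and the 27.3% called higher. All 6 fibroblast markers tested fell there, among them Postn by 2.25 ± 0.07 (adjusted p = 0.00431), Pi16, which fell by 1.87 ± 0.16 (0.00932), and Fbn1 by 1.73 ± 0.24 (0.0195). Their summed level was 5.01 and 4.71 in wild type, 5.22 on the sedentary and 3.49 on the exercised SPORTS array, on the log2 scale. Each sum here adds signals before the log2 is taken, so the brightest genes of a list weigh most. Such a sum does not measure the share of a cell type. On the sedentary array Postn alone passed, falling by 0.81 ± 0.07 (0.0450). The summed level of the 9 genes described here was 7.54 and 7.42, then 7.06 and 5.42. Macrophage markers (7 of 9 lower on the exercised array) summed to 5.76 and 5.23 in wild type, 6.41 on the sedentary and 4.20 on the exercised array. Of 5 adipocyte markers 3 fell on the exercised array, with sums of 4.45 and 4.77, then 4.33 and 3.37. Endothelial markers, with 3 of 6 lower and 1 higher, summed to 3.67 and 3.72, then 3.92 and 3.89. Of 7 smooth muscle and pericyte markers 2 rose and 1 fell on the exercised array. Their sum is mostly Des, which is also a muscle fibre gene, and without Des the 6 others summed to 4.27 and 4.34 in wild type, 4.25 on the sedentary and 4.18 on the exercised array. Of 6 Schwann cell markers 2 fell there, with sums of 3.34 and 3.20, then 3.95 and 2.48.

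Muscle fibre genes differed between the arrays as well. Their counts stand beside 26% of all genes tested called lower and 27.3% called higher on the exercised array. On the sedentary array these shares were 3.45% and 2.82%. Of 11 slow fibre genes, 10 fell on the exercised array (median -2.42), while on the sedentary one none fell and 2 rose, Tpm3 by 1.10 ± 0.09 (adjusted p = 0.0411) and Pln by 1.12 ± 0.07 (0.0369). Of 12 fast fibre genes, 6 fell on the sedentary array and none rose, with a median of -1.72, while 10 rose and 1 fell on the exercised array. The summed level of the fast fibre genes was 10.59 and 10.65 in wild type, 9.11 on the sedentary and 11.89 on the exercised array. Single genes differed more widely than this sum. On the exercised array they ran from -0.43 for Myh2 to 7.52 for Pvalb against wild type, with a median of 1.01. All 12 were at least 2-fold higher on the exercised than on the sedentary array, with the largest difference, 11.19, for Myh4. The part of fibroblasts, other cells and fibre type in the values of the 9 genes was not tested, and as the sources used here do not name the muscle, the sampling site cannot be told apart from the groups.

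Chad and Comp are also cartilage genes, so cartilage and bone markers were read. Of 6 cartilage markers with a probe, Acan, Col9a2, Matn1 and Hapln1 were not well above background on any array. Col2a1 entered the test through the wild-type arrays alone, so a call for it could hardly be other than lower. Col2a1 was well above background on the wild-type arrays only, and was at least 3.26-fold lower on the sedentary (adjusted p = 0.0383) and at least 2.55-fold lower on the exercised SPORTS array (0.00677). Col9a1 was measured on all arrays and differed by 0.13 ± 0.22 and -0.20 ± 0.22 (adjusted p = 0.699 and 0.504). None of 6 bone markers with a probe was well above background on any array.

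The genes whose 4 values, taken from their wild-type mean, lay nearest to each of the 9 were sought among 8468 other named genes, for those that spanned at least 4-fold over the arrays. Likeness was the Euclidean distance over the 4 arrays on the log2 scale, which is a description and has no test. Since the exercised values of Comp, Chad, Tnmd and Cilp2 were only bounds, no distances are given for these 4. The exercised values of P3h2, Itga10 and Tmem179 were not well above background, so their distances rest in part on bounds. Nearest to Fmod were P3h2 at 0.36, the collagen-binding integrin gene Itga10 at 0.47 and Tmem179 at 0.53. Nearest to Lum were Ccn2 at 0.18, Gsta4 at 0.22 and Ldhb at 0.23, which were well above background on all 4 arrays.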

How the data were processed

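The members and gene lists were chosen with earlier results of these data known. Groups follow the source names. Per the labels' protocols, 100 ng of RNA was labelled with Cy3. Per the file headers, the authors read the scans with Agilent Feature Extraction 10.7.1.1, and the deposited intensity is background-subtracted and detrended within each array, without scaling between arrays. The authors' deposited value table holds log2 values, centred on each probe's median over the arrays. Its column differences followed the log2 signal (r = 1 over 29977 probes), which fixes scale and direction, and its column medians were 0.02, -0.02, 0.17 and -0.15 (wild type 1 and 2, exercised, sedentary).

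Control spots and outlier spots were left out and spots of a probe averaged. Of 30367 probes 352 were dropped. Accessions matched 59.4% of the others to a symbol in RefSeq's GRCr8 table. Genes well above background on at least 2 of the 4 arrays were tested, 13326 in all, 8477 of them named. The number of arrays limits the precision. Tests were two-sided, with limma 3.58.1 in R 4.3.3, and adjusted over all genes tested. The 3-group fit has 1 residual degree of freedom. The fits were tested on simulated data.

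Named were the 9 genes, the genes of the other lists that passed, and the nearest genes by profile. Where over 3 of a list passed, the 3 with the largest differences were named, beside any named to complete a count after its value was seen. Fibre, macrophage, adipocyte, endothelial, smooth muscle and Schwann cell lists are given as counts. Extremes of the fast fibre genes were also named after their values were seen. Alternatives were scaling by the median, quantile normalization, normexp background correction, other filters, a floor, the mean of all probes, a variance trend, the authors' table and leaving out each array. The slide as a block could not be fitted, since there is 1 slide.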

Additional observations from a re-analysis of the deposited data

How the results depend on the processing

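The 9 genes were called lower on the exercised SPORTS array under every setting that tested all 9, and the 5 still tested when all 4 arrays had to be well above background were called too. Scaling by the median moved the median of all genes by 0.23 on that array and turned 3634 higher and 3463 lower calls into 5571 and 2505. Against the sedentary array it turned 1214 genes higher and 1706 lower into 1663 and 1354, with all 9 genes still lower. With dim values at the floor, 8 of the 9 were at least 2-fold lower than on the sedentary array, Cilp2 being the exception at -0.59. Scx rose on the sedentary array with normexp correction (0.44, adjusted p = 0.0434) and with a variance trend (0.40, 0.0350).

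The median of the genes on the sedentary array, -0.26, was 0.10 when only genes well above background on all 4 arrays were kept, which leaves 5. On the exercised array, -4.21 became -1.57 with that filter, -2.59 with normexp, -3.01 with the floor and -3.98 with scaling by the median, and it ranged from -4.27 to -4.15 without 1 wild-type array. The 836 genes called on the sedentary array became 2110 with normexp, 2170 with all arrays well above background, 0 with no filter, 1611 with the floor and 2816 with a variance trend. Between the SPORTS arrays, 2920 genes lay at least 2-fold apart, which became 4887 with no filter. SPORTS against wild type called 0 genes, 1 with quantile normalization and 1 with normexp. Leaving out 1 array gave 0 to 7097 calls: 836 without the exercised and 7097 without the sedentary array, and of the 9 genes Chad, Tnmd, Fmod and Cilp2 passed without the former and all passed without the latter. Without a wild-type array the 3-group fit has no residual degrees of freedom and gives values only. No paired analysis was possible, because the labels name no pairs and each SPORTS group is 1 array. The number of arrays and signals near background limit precision.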
